A study of Bos taurus with 16 samples.

Results

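The proliferation and mitosis genes described here are MKI67 (NCBI gene ID 513220), TOP2A (787696), CCNA2 (281667), CCNB1 (327679), CCNB2 (281668), CDK1 (281061), CEP55 (513594), BUB1 (514777), AURKB (360192) and PLK1 (538238). They were picked by symbol, and all 10 were found among the 34109 genes of the deposited tables. CCNB2 and CEP55 were singled out with their values in these libraries already known, so their differences between diets and between muscles are described without a test. The other 8 genes were tested for diet, for muscle and for a diet difference between the muscles.

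RNA had been sequenced from the round and the sirloin muscle of 8 newborn Hanwoo calves, a Korean beef breed of Bos taurus. As examples the paper names the Semimembranosus and Biceps femoris for round, and the Gluteus medius and Psoas major for sirloin. The control group was born to 4 cows fed 100% of their requirement in mid to late pregnancy, and the treated group to 4 cows overfed at 150% over the same period. Each calf gave a library of each muscle, so there were 4 control and 4 treated libraries in each muscle, and the same replicate number within a diet marks the same calf. The methods of the study state that the calves were male and had received no colostrum. They were killed after birth with intravenous pentobarbital and exsanguination, and muscle was then taken. All groups share this age, breed, sex and handling. Beyond these and the diet of the cows, nothing in the sources used here describes a further treatment or a genetic change. The calf is the replicate, and 4 calves per diet limit the precision of every comparison between diets.

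Cells that divide switch on a shared set of genes in S phase, G2 and mitosis, and shut most of them off again on leaving the cycle. Cyclins A and B activate the kinase CDK1, which drives entry into mitosis. Kinases such as PLK1, AURKB and BUB1 then act on the spindle and on chromosome attachment, and CEP55 serves the final separation of the daughter cells. In skeletal muscle the nuclei inside fibres have left the cycle for good, whereas satellite cells, fibroblasts, endothelial cells and blood-derived cells can divide. A bulk library mixes all of them, so fewer dividing cells and less RNA of a gene per cell cannot be told apart.

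The libraries held 44473011 to 72446933 counts each. The summed TPM (the deposited transcript abundance, corrected for gene length and depth) of 10 skeletal muscle fibre markers ran from 70400 to 129000, the highest sum of the 8 marker lists in every group. Satellite cell and myoblast markers summed to 144 to 808 TPM, leukocyte markers to 5.62 to 31.6 TPM, and red blood cell markers to 32.7 to 214 TPM, with SLC4A1 at 0 in all 16 libraries. One control round library (replicate 2) stood apart with 1560 TPM of fibroblast markers, and 1 treated sirloin library (replicate 4) with 3960 TPM of adipocyte markers against at most 190 elsewhere.

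The cell-cycle genes were expressed at a low level in both muscles at birth, apart from PLK1. PLK1, the polo-like kinase of mitotic entry and exit, averaged 3.45 ± 0.965 TPM in round and 3.54 ± 0.859 TPM in sirloin muscle (SD, n = 8 calves each). CDK1, the kinase partner of the mitotic cyclins, came next with 0.411 ± 0.153 and 0.322 ± 0.0902 TPM, so the mean level of PLK1 was 8.4 times that of CDK1 in round and 11 times in sirloin muscle. The other 9 genes all averaged under 1 TPM in both muscles.

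The order after CDK1 in round muscle was TOP2A (0.327 TPM), CCNA2 (0.323), AURKB (0.228), MKI67 (0.223), CCNB1 (0.177), BUB1 (0.13), CCNB2 (0.112) and CEP55 (0.0971). In sirloin muscle it was TOP2A (0.167 TPM), CCNA2 (0.162), MKI67 (0.141), AURKB (0.127), BUB1 (0.117), CCNB2 (0.114), CCNB1 (0.083) and CEP55 (0.0452). Only PLK1 stood clear of its neighbour in this order. Its lowest library, at 1.93 TPM in round and 2.05 TPM in sirloin muscle, lay above the highest CDK1 value of 0.637 and 0.507 TPM, whereas the ranges of all other neighbours overlapped. MKI67, the classical marker of cycling cells, ranged from 0.087 to 0.379 TPM in round and from 0.0445 to 0.37 TPM in sirloin muscle.

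**Figure D1:**
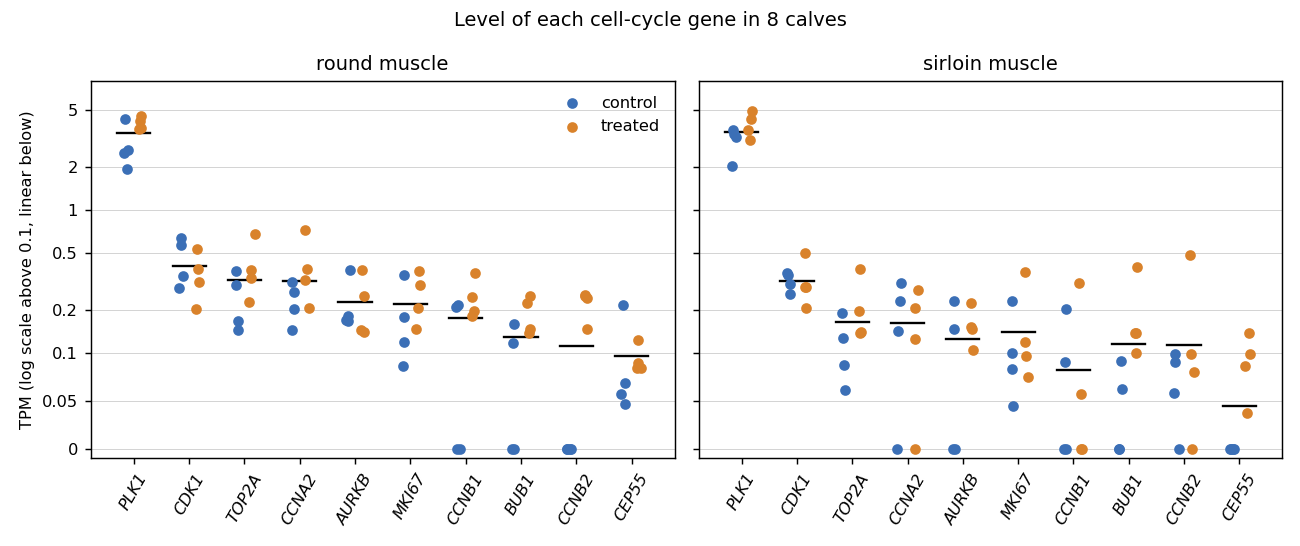
TPM of each gene in round (left) and sirloin (right) muscle, 1 point per calf, blue for control and orange for treated, with a black line at the mean of 8 calves; the axis is logarithmic above 0.1 TPM and linear below. PLK1 sits near 3.5 TPM in both muscles while the other 9 genes lie below 1 TPM, and points on the bottom line are libraries where a gene is listed at 0.

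Because levels were low, the deposited counts behind them were small. PLK1 had 130 to 403 counts per library in round and 133 to 343 in sirloin muscle, MKI67 37 to 141 and 15 to 109, TOP2A 22 to 101 and 11 to 58, and CDK1 26 to 60 and 26 to 65. These 4 genes were above 0 in all 16 libraries. The other 6 genes never exceeded 41 counts and were listed at 0 in at least 1 library, which makes 24 of the 160 gene values. The lowest value above 0 was 4 counts.

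These zeros were spread unevenly over the groups. In round muscle 8 of 40 values were at 0 in the control group and 0 of 40 in the treated group, and in sirloin muscle 12 of 40 and 4 of 40. Without CCNB2 and CEP55 the counts were 4, 0, 7 and 3 of 32 values in the same order. Each control calf had 2 genes at 0 in round muscle, and 4, 2, 3 and 3 genes at 0 in sirloin muscle (replicates 1 to 4). The treated calves had 1, 1, 2 and 0 genes at 0 in sirloin muscle and none in round muscle.

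A zero in these tables is more frequent than counts of this size would give. Among 1481 protein-coding genes with a mean of 5 to 20 counts in round muscle, 2109 of 11848 values (17.8%) were at 0, but only 35 were at 1 and 304 at 2. In sirloin muscle 2199 of 12072 values (18.2%) were at 0 and 20 at 1. A gene at 0 is therefore said here to be listed at 0, and no fold against such a group is given. The share of zeros varied between libraries, here over the 1472 genes with such a mean across all 16 libraries. It was 21.2%, 9.1%, 31.2% and 22.0% in control round replicates 1 to 4 and 15.2%, 15.8%, 11.7% and 26.6% in the treated ones. In sirloin muscle the shares were 25.3%, 8.8%, 24.7% and 26.8% in the control and 18.5%, 18.6%, 18.5% and 12.1% in the treated libraries, so control libraries other than replicate 2 had the higher shares. The part of this library difference in the zeros of the cell-cycle genes was not tested.

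**Figure D2:**
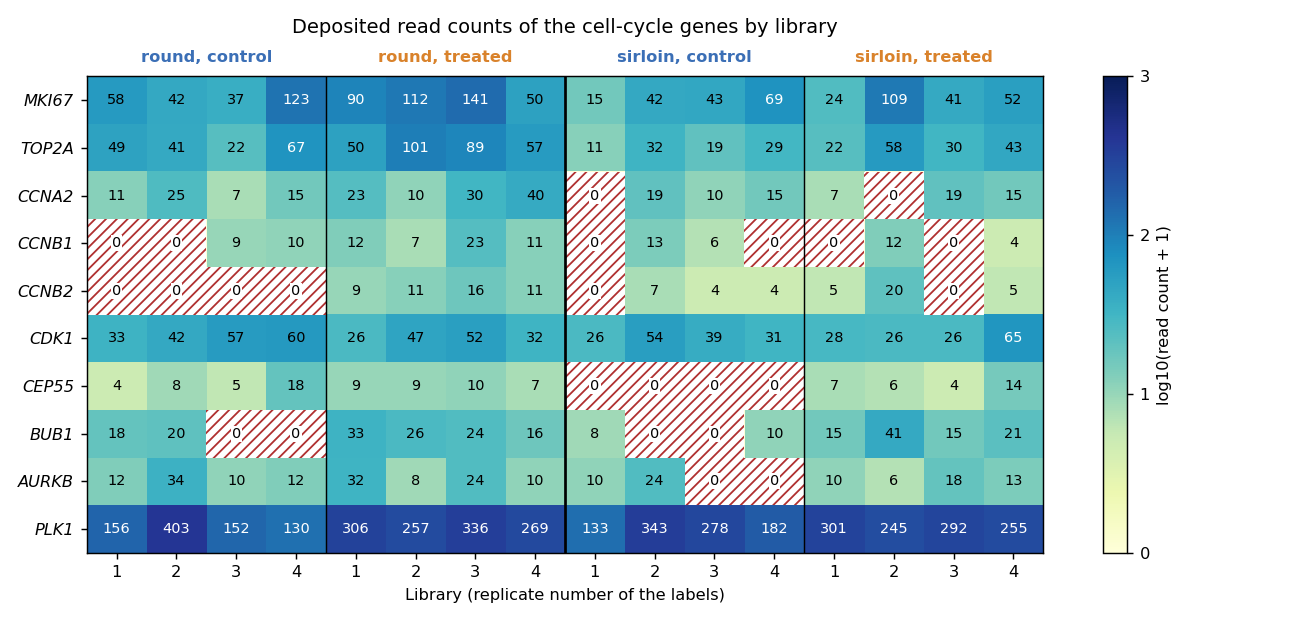
Deposited counts of the 10 genes (rows) in the 16 libraries (columns, grouped by muscle and diet), coloured by log10(count + 1), with hatching where a gene is listed at 0. All 4 round control libraries are hatched for CCNB2 and all 4 sirloin control libraries for CEP55, and no round treated library has a hatched cell.

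CCNB2, which encodes cyclin B2, was listed at 0 in all 4 control calves in round muscle and had 9, 11, 16 and 11 counts in treated replicates 1 to 4. In sirloin muscle it had 0, 7, 4 and 4 counts in the control and 5, 20, 0 and 5 counts in the treated calves. The diets did not overlap in round muscle and overlapped in sirloin muscle. Control replicates 2, 3 and 4 had CCNB2 counts above 0 in sirloin muscle although the same calves were at 0 in round muscle. Treated replicate 3 showed the reverse, with 16 counts in round and 0 in sirloin muscle. In CPM, the count scaled to library size with TMM factors, its treated mean was 0.208 ± 0.043 in round muscle, against 0.0629 ± 0.0437 in the control and 0.143 ± 0.176 in the treated group of sirloin muscle (SD, n = 4 calves each).

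CEP55, a midbody protein of abscission, showed the opposite arrangement of zeros. In round muscle it was above 0 in every calf, with 4, 8, 5 and 18 counts in the control and 9, 9, 10 and 7 counts in the treated group. All 4 control calves were listed at 0 in sirloin muscle, where the treated ones had 7, 6, 4 and 14 counts. The diets therefore overlapped in round and not in sirloin muscle. Its CPM means in round muscle were 0.179 ± 0.143 in the control and 0.155 ± 0.0203 in the treated group, and the treated mean in sirloin muscle was 0.131 ± 0.0599 (SD, n = 4 calves each).

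Neither gene thus held its diet pattern in both muscles, and each was present in control calves in the other muscle. In round muscle 0.0323% of the 21677 genes tested (7 genes) were at 0 in all control and above 0 in all treated libraries, and 0.0231% (5 genes) showed the reverse. In sirloin muscle the same pattern held for 0.0643% of 21776 genes (14 genes), and the reverse for 0.00459% (1 gene). CCNB2 and CEP55 are among these by the choice made, so their count is not read against these shares.

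None of the other 8 genes separated the diets in either muscle. Groups without overlap made up 0.687% (treated higher) and 1.07% (treated lower) of all genes in round muscle, and the corresponding sirloin shares were 0.859% and 0.822%. Of these 8 genes, only CDK1 and AURKB had a lower treated mean CPM in round muscle, and only CDK1 and CCNA2 in sirloin muscle. For the 8 tested genes the fitted log2 fold change of treated over control was above 0 for 7 in round muscle, with a median of 0.49, beside 51.9% of all genes tested and a median of 0.02. The sirloin value was above 0 for 6 of 8, with a median of 0.27, beside 52.9% and a median of 0.03. None passed an adjusted p of 0.05 (edgeR quasi-likelihood test, Benjamini-Hochberg over all genes). That threshold was passed by 0.0185% of all genes in round and 0.00918% in sirloin muscle.

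Among markers of S phase to mitosis, MKI67 had 58, 42, 37 and 123 counts in the control and 90, 112, 141 and 50 in the treated group of round muscle. Both the highest control and the lowest treated calf crossed into the other group. The log2 fold change was 0.33 ± 0.52 (SE, adjusted p = 0.969), with 0.02 without control replicate 2 and 0.88 without control replicate 4. In sirloin muscle the counts were 15, 42, 43 and 69 in the control and 24, 109, 41 and 52 in the treated group. The difference of 0.33 ± 0.61 (adjusted p = 1) rested on treated replicate 2, and turned to -0.37 without it.

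TOP2A, the DNA topoisomerase of dividing cells, had CPM values of 1.18, 0.531, 0.534 and 1.46 in the control and 0.796, 2.08, 1.29 and 1.19 in the treated group of round muscle. In sirloin muscle they were 0.245, 0.429, 0.316 and 0.662 in the control and 0.433, 1.16, 0.446 and 0.63 in the treated group. There, only control replicate 4 lay above any treated calf. The log2 fold changes were 0.55 ± 0.49 in round (adjusted p = 0.892) and 0.69 ± 0.51 in sirloin muscle (adjusted p = 0.876). Without treated replicate 2 they were 0.24 and 0.28.

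Among the cyclins and their kinase, CDK1 was the one gene with a lower treated mean in both muscles. Its counts in round muscle were 33, 42, 57 and 60 in the control and 26, 47, 52 and 32 in the treated group, with a log2 fold change of -0.50 ± 0.48 (adjusted p = 0.897). In sirloin muscle the difference was -0.15 ± 0.42 (adjusted p = 1). CCNA2, the cyclin of S phase and G2, had 7 to 25 counts in the control and 10 to 40 in the treated group of round muscle (log2 fold change 0.77 ± 0.59, adjusted p = 0.872). It was at 0 in sirloin muscle of control replicate 1 and treated replicate 2, and the difference was -0.25 ± 1.13.

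CCNB1, the other B-type cyclin, was at 0 in 4 of the 6 libraries in which CCNB2 was at 0 and in 2 others of sirloin muscle. In round muscle it had 0, 0, 9 and 10 counts in the control and 12, 7, 23 and 11 in the treated group, so control replicates 3 and 4 expressed CCNB1 while listed at 0 for CCNB2. In sirloin muscle both diets had 2 calves at 0, with counts of 0, 13, 6 and 0 in the control and 0, 12, 0 and 4 in the treated group. The log2 fold changes of 1.08 ± 1.15 in round and 0.05 ± 1.65 in sirloin muscle were smaller than their standard errors (adjusted p = 0.924 and 1).

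Among the mitotic kinases, BUB1, which guards chromosome attachment, had the largest fitted differences between the diets of the 8 tested genes when all calves were included. Its counts were 18, 20, 0 and 0 in the control and 33, 26, 24 and 16 in the treated group of round muscle, and 8, 0, 0 and 10 against 15, 41, 15 and 21 in sirloin muscle. In CPM the highest control value in sirloin muscle, 0.228, lay just above the lowest treated value, 0.223. The log2 fold changes were 1.33 ± 1.06 in round (adjusted p = 0.884) and 2.05 ± 1.15 in sirloin muscle (adjusted p = 0.876). In round muscle the value was 2.21 without control replicate 1 and 0.93 without control replicate 4, when CCNB1, at 1.69, had the larger difference. Control calves with BUB1 at 0 were replicates 3 and 4 in round and replicates 2 and 3 in sirloin muscle, so only replicate 3 was at 0 in both.

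PLK1, with the most counts, gave the most precise comparison. Its CPM values in round muscle were 3.75, 5.22, 3.69 and 2.84 in the control and 4.87, 5.29, 4.86 and 5.62 in the treated group, and only control replicate 2 reached the treated range. The log2 fold change was 0.43 ± 0.29 (adjusted p = 0.864). In sirloin muscle the values were 2.97, 4.6, 4.62 and 4.15 in the control and 5.93, 4.9, 4.35 and 3.74 in the treated group, with a difference of 0.21 ± 0.28 (adjusted p = 0.984). AURKB, the kinase of the chromosomal passenger complex, had nearly equal means in round muscle (0.309 ± 0.0899 CPM in the control and 0.308 ± 0.156 CPM in the treated group, SD, n = 4 calves each), and a log2 fold change of 0.49 ± 1.14 in sirloin muscle, where control replicates 3 and 4 were at 0.

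**Figure D3:**
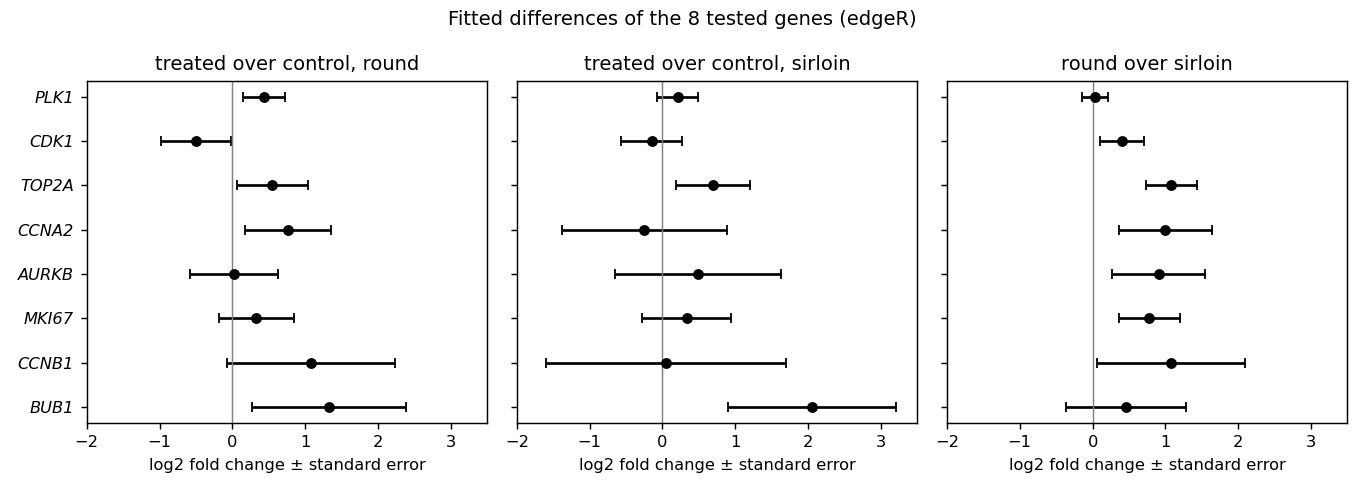
Fitted log2 fold change (point) with its standard error (bar) for the 8 tested genes, treated over control in round (left) and sirloin muscle (middle) and round over sirloin muscle (right), from edgeR. In the diet panels most points lie right of 0 with wide bars, from 0.28 for PLK1 to 1.65 for CCNB1 in sirloin muscle, and in the muscle panel all 8 points lie at or right of 0.

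The diet difference itself was compared between the muscles in a fit of all 16 libraries. The differences of the round and sirloin log2 fold changes ran from -0.74 (BUB1) to 1.01 (CCNB1) over the 8 genes, 3 of them above 0, and each had an adjusted p of 1 by edgeR. No gene of the whole table passed this test (0.0% of 22877 genes by edgeR, with 637 at an unadjusted p under 0.05, and 0 by DESeq2). Standard errors ran from 0.36 (PLK1) to 2.04 (CCNB1), so a difference of either sign was not detectable at this precision.

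Per calf, cell-cycle activity was summarised as the summed CPM of MKI67, TOP2A, CCNA2, CCNB1, CDK1, BUB1 and AURKB. PLK1 was left out because its counts outweighed the rest, and CCNB2 and CEP55 because they were to be set against the sum. MKI67, TOP2A and CDK1 weighed most in it, with means of 1.54, 1.13 and 0.854 CPM over the 8 round libraries. The order of the calves depends on leaving out PLK1, which was lowest of the round libraries in control replicate 4, at 2.84 CPM. In round muscle the sum was 4.36, 2.64, 3.45 and 6.27 CPM in control replicates 1 to 4 and 4.24, 6.40, 5.54 and 4.51 CPM in treated replicates 1 to 4. In sirloin muscle it was 1.56, 2.47, 1.95 and 3.51 CPM in the control and 2.09, 5.04, 2.22 and 3.12 CPM in the treated calves. Treated replicate 2 had the highest sum and control replicate 4 the next in both muscles, and the diets overlapped in both. The group means were 4.18 ± 1.56 (control) and 5.17 ± 0.992 CPM (treated) in round muscle, and 2.37 ± 0.845 against 3.12 ± 1.36 CPM in sirloin muscle (SD, n = 4 calves each).

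CCNB2 did not follow the order of the 7-gene sum in round muscle. Control replicate 4, second highest in that sum but lowest for PLK1, was listed at 0 for CCNB2. In sirloin muscle its highest value, 20 counts, was in treated replicate 2, the calf with the highest sum. CEP55 had its highest value of round muscle, 18 counts, in control replicate 4, and was at 0 in that calf in sirloin muscle, where the sum of that calf was again the second highest. For CEP55 in sirloin muscle the highest value, 14 counts, was in treated replicate 4, whose sum ranked after those 2 calves.

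Across the 8 calves of a muscle, the log2 CPM of CCNB2 was related to that of MKI67 with Pearson's r = 0.345 in round (exact permutation p = 0.407, adjusted over 4 relations 0.543, Spearman's rho = 0.292 with p = 0.487) and r = 0.744 in sirloin muscle (exact permutation p = 0.0311, adjusted 0.0863, rho = 0.371 with p = 0.363). CEP55 gave r = 0.709 in round (exact permutation p = 0.0432, adjusted 0.0863, rho = 0.738 with p = 0.0458, adjusted 0.183) and r = 0.181 in sirloin muscle (exact permutation p = 0.637, rho = 0.203 with p = 0.631). No relation passed an adjusted p of 0.05. CCNB2 and CEP55 were singled out with their values known, and their groups listed at 0 enter these relations. Their p-values therefore cannot decide whether they follow MKI67, and the r values are a description. The 2 calves farthest from the median of MKI67 were then left out in each muscle. They were control replicates 2 and 4 in round, and control replicate 4 and treated replicate 2 in sirloin muscle. CCNB2 in sirloin then gave r = 0.438 and CEP55 in round muscle r = 0.532 (exact permutation p = 0.389 and 0.268, n = 6 calves each). Neither had an unadjusted p under 0.05 over the 6 calves left in its muscle. After the mean of each diet was subtracted over all 8 calves the 2 values were 0.735 and 0.747. Over the 6 calves left in each muscle, CCNB2 gave r = 0.548 in round and CEP55 r = 0.331 in sirloin muscle (exact permutation p = 0.211 and 0.558). Different calves were left out in the 2 muscles, so these r values do not compare the muscles over shared calves. The difference between the muscles in these relations was not tested.

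Over all 16 libraries the likeness of each gene to the mean standardized level of the others was described by Pearson's r without a test, since libraries share calves and muscles. It was highest for TOP2A (0.85), followed by CEP55 (0.728), MKI67 (0.62), CCNB2 (0.512), CCNB1 (0.447) and CCNA2 (0.318). AURKB (0.135), PLK1 (0.119), BUB1 (0.115) and CDK1 (0.0575) followed the others little. MKI67 and TOP2A were alike with r = 0.892. CEP55 and CCNB2 were compared with 8 genes and each other gene with the 7 left among those 8. Among 12190 other genes with a mean of at least 1 CPM, the 5 most like the 8 genes were VASH2 (r = 0.737), which encodes a tubulin-modifying peptidase, LOC101907241 (0.716), LOC101903540 (0.707), ALDH1A2 (0.693), an enzyme of retinoic acid synthesis, and CTIF (0.689), a translation factor.

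All 8 tested genes had a higher fitted level in round than in sirloin muscle, although none passed the test. The log2 fold change of round over sirloin muscle had a median of 0.84 over the 8 genes, beside a median of 0.0 and 50.6% above 0 among all 22877 genes tested, of which 0.0612% (14 genes) passed an adjusted p of 0.05. In this fit the 2 libraries of a calf were taken as separate samples. With the calf as a block the count over all genes was 109, and none of the 8 genes was among them.

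TOP2A had the smallest p-value of the 8 genes between the muscles. Its CPM was higher in round muscle in 8 of 8 calves, with means of 1.13 ± 0.516 in round and 0.54 ± 0.287 in sirloin muscle (SD, n = 8 calves). The log2 fold change was 1.08 ± 0.35 (edgeR, adjusted p = 0.642). With the calf as a block it was 1.06 ± 0.25 with an adjusted p of 0.0943, the lowest of the alternatives, over which it ranged up to 1. MKI67 was higher in round muscle in 7 of 8 calves, with 0.78 ± 0.42 (adjusted p = 0.826) and 0.85 ± 0.28 with the calf as a block (adjusted p = 0.236, range over the alternatives up to 1). The 1 calf with more MKI67 in sirloin muscle was control replicate 2.

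Of the remaining tested genes, AURKB was higher in round muscle in 8 of 8 calves (log2 fold change 0.91 ± 0.64, adjusted p = 0.947), a pattern shared by TOP2A and by 1.15% of all genes (264 of 22877). CCNA2 was higher in 7 calves (1.00 ± 0.64, adjusted p = 0.897), and CCNB1, CDK1, BUB1 and PLK1 each in 5. PLK1 differed least, with 0.03 ± 0.18 (adjusted p = 1), so that the gene with the highest level showed no detectable difference between the muscles at this precision. The 7-gene sum was higher in round muscle in every calf, at 4.68 ± 1.32 against 2.75 ± 1.12 CPM (SD, n = 8 calves). CEP55 was higher in round muscle in 7 calves, and CCNB2 in 3, with 4 calves higher in sirloin muscle and 1 at 0 in both. In the control calves the zeros for which these 2 genes were singled out fix this outcome. There CCNB2 could not be higher in round muscle, and CEP55 could not be higher in sirloin muscle. Among the treated calves, CCNB2 was higher in sirloin muscle only in replicate 2 and CEP55 only in replicate 4. The contrast between the 2 genes is therefore not read as one following the others and one not.

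**Figure D4:**
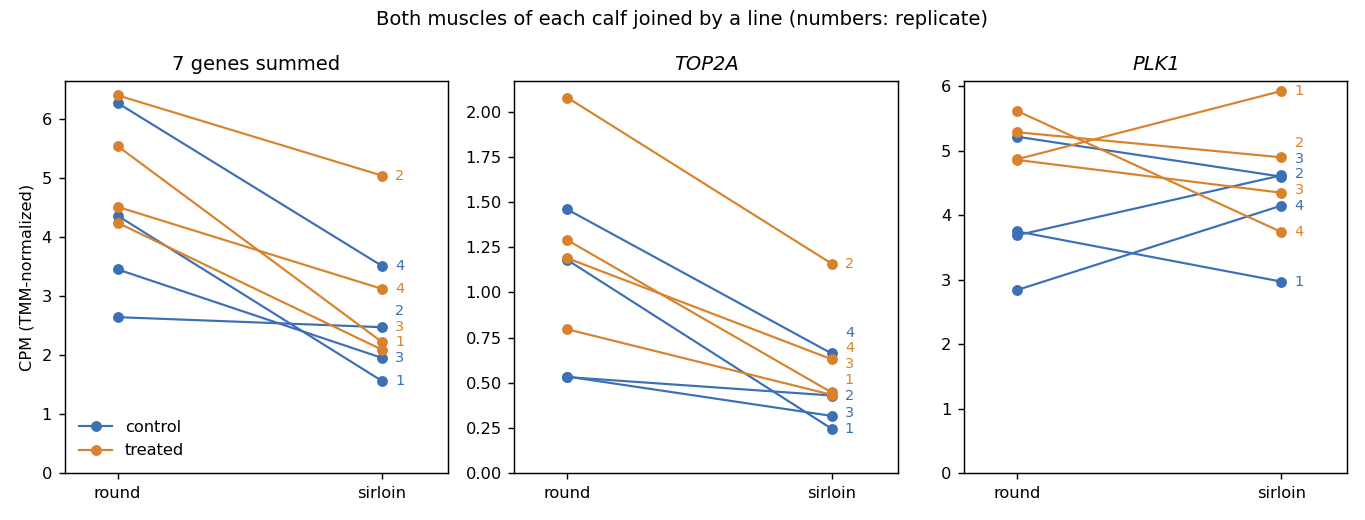
CPM in round and sirloin muscle of each calf, joined by a line and numbered by replicate, for the sum of 7 genes (left), TOP2A (middle) and PLK1 (right), blue for control and orange for treated. All 8 lines of the sum and of TOP2A fall from round to sirloin muscle, while those of PLK1 cross, with 5 falling and 3 rising.

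The levels of a calf in its 2 muscles were only loosely related. Across the 8 calves, TOP2A in round was related to TOP2A in sirloin muscle with r = 0.651 (exact permutation p = 0.0763, adjusted over 10 genes 0.577) and rho = 0.81 (p = 0.0218, adjusted 0.218), and without the 2 calves farthest from the median r was 0.692. MKI67 gave r = 0.535 (exact permutation p = 0.173, adjusted 0.577) and rho = 0.452. CCNB2 gave r = 0.211 (exact permutation p = 0.652) and CEP55 r = 0.016 (exact permutation p = 0.982). Without the 2 farthest calves of each gene these were 0.71 and 0.772 (exact permutation p = 0.0667 and 0.0722, adjusted 0.181 each, n = 6 calves). None of the 10 genes passed an adjusted p of 0.05 by either measure. For CCNB2 and CEP55, singled out with their values known, r is a description and the p-values decide nothing. The other 6 genes had r between -0.195 (CCNB1) and 0.489 (BUB1).

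The wider cell cycle was followed in 10 lists of 129 genes, of which 128 were matched and tested. They differed in level by function. G1 cyclins and kinases had a median of 2.01 TPM, from E2F2 at 0.0725 to CDK4 at 23.2 TPM, and DNA replication genes a median of 2.41 TPM, from CDC6 at 0.0348 to MCM7 at 34.0 TPM. The inhibitors of cyclin-dependent kinases reached furthest up, with CDKN1A, the p21 protein of cycle exit, at 174 TPM. The lowest medians were 0.0837 TPM for the spindle checkpoint and kinetochore, 0.14 TPM for the spindle and its kinesins and 0.251 TPM for mitotic kinases and chromosome passengers. Cytokinesis genes had a median of 0.494 TPM, condensin and cohesin 0.844 TPM (up to RAD21 at 48.3 TPM), anaphase and ubiquitin ligase 0.913 TPM (up to UBE2S at 37.1 TPM) and G2/M control 1.38 TPM. Of the 128 genes 69 averaged under 1 TPM, and 8.4% of their values were at 0.

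None of the 128 genes passed an adjusted p of 0.05 in any of the 4 tests (edgeR). At an unadjusted p under 0.05, 0 were higher and 4 lower in treated calves in round muscle, and 1 higher and 0 lower in sirloin muscle. Over all genes the same counts were 417 and 539 of 21677 in round and 500 and 352 of 21776 in sirloin muscle. The fitted difference was above 0 for 58.6% of them in round (median 0.07) and for 63.3% in sirloin muscle (median 0.18). By list the median ran from -0.19 (anaphase and ubiquitin ligase) to 0.38 (mitotic kinases and chromosome passengers) in round muscle. For sirloin muscle the median ran from -0.14 for cytokinesis genes, of which 1 of 7 was above 0, to 0.96 for the kinase inhibitors, 5 of 8 above 0. It was 0.51 for the spindle checkpoint and kinetochore genes, 14 of 17 above 0, and 0.39 for the spindle and its kinesins.

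Those named among the genes lower in round muscle had different tasks. ECT2, an exchange factor of cytokinesis, had 380, 194, 212 and 354 counts in the control and 72, 66, 212 and 149 in the treated group (log2 fold change -1.48 ± 0.47, adjusted p = 0.864). SMC4, a condensin core subunit, had means of 13.8 ± 2.49 and 9.24 ± 1.06 CPM (SD, n = 4 calves; log2 fold change -0.56 ± 0.24). CENPK, a kinetochore protein, had 0, 12, 0 and 6 counts in the control and was at 0 in all treated calves. It had 0, 6, 0 and 0 counts in the control and 0, 7, 6 and 6 in the treated group of sirloin muscle, and its unadjusted p for a diet difference between the muscles was 0.0149 (edgeR, adjusted p = 1).

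In sirloin muscle MYBL2, a transcription factor of G2 and mitosis genes, had 89, 163, 215 and 102 counts in the control and 160, 156, 279 and 510 in the treated group (log2 fold change 0.82 ± 0.37, adjusted p = 0.876). The diets overlapped there, with up to 3.58 CPM in the control and from 3.12 CPM in the treated group. Its 510 counts were in treated replicate 4, the library with 3960 TPM of adipocyte markers. In round muscle the treated mean was higher too. The round values were 2.26 to 2.62 CPM in the control and 3.04 to 3.96 CPM in the treated group, without overlap, as for 0.687% of all genes. TTK, a spindle checkpoint kinase, had 0, 0, 2 and 0 counts in the control and 0, 9, 6 and 11 in the treated group. For CDKN2B, an inhibitor of CDK4 and CDK6, a single treated library (replicate 4) had 52 counts and the other sirloin libraries at most 4. That library also carried the adipocyte marker sum of 3960 TPM, and the part of this in the MYBL2 and CDKN2B values was not tested.

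Between the muscles 61.7% of the 128 genes were higher in round muscle, with a median log2 fold change of 0.08. The lists went different ways. All 8 anaphase and ubiquitin ligase genes were above 0 (median 0.42), as were 14 of 18 spindle and kinesin genes (0.56), 14 of 17 spindle checkpoint and kinetochore genes (0.40) and 7 of 8 mitotic kinases (0.36). DNA replication genes had 11 of 27 above 0 (median -0.07), G1 cyclins and kinases 5 of 12 (-0.15) and kinase inhibitors 2 of 8 (-0.1). At an unadjusted p under 0.05, 7 genes were higher and 2 lower in round muscle, beside 755 and 692 of all 22877 genes. CCND1, the cyclin D1 gene of G1, had a log2 fold change of 1.17 ± 0.37 (adjusted p = 0.634), and its highest count, 381, was in control round replicate 2, the library with 1560 TPM of fibroblast markers. CKAP2, a spindle protein, had 0.69 ± 0.26 (adjusted p = 0.713). The 2 lower genes were NCAPG, a condensin subunit, with -1.02 ± 0.33 (adjusted p = 0.642), and CDK2, the kinase of S phase, with -0.47 ± 0.2, chosen after its value was seen. For the diet difference between the muscles, KIF18B, a mitotic kinesin, had 1.72 ± 0.83 and CCND2, another D-type cyclin, -1.29 ± 0.64 (adjusted p = 1 each).

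Markers of cell types that can divide moved with the groups in part. The 12 leukocyte markers summed to 5.62 to 14.2 TPM (median 10.2) in control and 11.9 to 17.2 TPM (median 15.9) in treated round libraries, and to 5.73 to 11 TPM (median 9.46) and 7.9 to 31.6 TPM (median 28.6) in sirloin libraries. All 12 were detected in at least 1 library. Satellite cell and myoblast markers, with 8 of 9 matched and all 8 detected, summed to medians of 487 and 353 TPM in round and 258 and 281 TPM in sirloin muscle (control and treated), over ranges of 244 to 530, 255 to 808, 144 to 535 and 205 to 445 TPM. This sum mainly reflects MYF6, at a mean of 294 TPM, followed by MYOG at 31.0 TPM. MYF5 averaged 1.11 and CALCR 0.106 TPM, and PAX7 was the unmatched marker. The sum is therefore not read as the number of satellite cells. Endothelial markers summed to medians of 104 and 126 TPM in round and 95.0 and 109 TPM in sirloin muscle. Fibroblast markers had medians of 305 and 307 TPM in round and 214 and 256 TPM in sirloin muscle. The part of these cell types in the levels of the cell-cycle genes was not tested.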

How the data were processed

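The authors deposited read counts per gene, whole numbers without normalization, and TPM values, which sum to between 999756 and 1000000 per library. The methods of the study name an rRNA and globin depletion kit, Trimmomatic, SortMeRNA, HISAT2, Bowtie2 and StringTie. The labels state poly(A) selection, and the submitters' processing notes list STAR, featureCounts, DESeq2 and build ARS-UCD1.2. How this difference affects low counts was not tested. Deposited comparison tables hold the authors' fold changes and p-values and were not used. Symbols came from a RefSeq table of another build, so no coordinates are given, and 30762 of 34109 IDs matched. MAD2L1 was not analysed here. Some genes that the lists hold are not reported here by name.

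Tests were fitted with edgeR 4.0.16 in R 4.3.3 (TMM, glmQLFit and glmQLFTest, two-sided, without covariates): per muscle for diet (21677 and 21776 genes) and over 16 libraries for muscle and the diet difference (22877 genes). Every gene above 0 in any library entered. CPM used TMM factors. Correlations used log2 CPM (prior count 2) and two-sided exact permutation over 40320 orders of 8 calves (scipy 1.17.1 in Python 3.11.15), adjusted by Benjamini-Hochberg over 10 and 4 relations. Alternatives were RLE factors, filterByExpr, DESeq2 1.42.0, a replicate or calf block, leaving out each calf, log2(TPM + 0.1), leaving out the 2 farthest calves and subtracting diet means. The labels give both muscles of a calf the same number, and after the group means were removed their correlations were 0.311 to 0.765. Numbers did not pair calves across diets (-0.280 to 0.290). Each fit was tested on simulated data.

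The genes, lists and tests were chosen with earlier results of these data known. All 10 genes were named. From the lists, genes were named that passed an adjusted p of 0.05 in any test or had 1 of the 3 smallest p-values of a test. The 5 genes most like the group, sought outside the 10 genes and the lists, were named too. Of the 10 genes 7 pass filterByExpr in each muscle, all but CCNB1, CCNB2 and CEP55. At total counts of 44473011 to 72446933 per library, 9 of the 10 genes had at most 141 counts in any library.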

Additional observations from a re-analysis of the deposited data

Results flagged for a closer look

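Within the 4 calves of a group, the highest or lowest value of a gene was checked against the other 3 by Dixon's ratio of gap to range, and 5 of 38 groups exceeded its 95% critical value. Chance flags about 1 in 20 groups. Treated replicate 2 was high in sirloin muscle for MKI67, at 2.18 CPM against 0.473 to 0.762 in the other treated calves (ratio 0.831), and for BUB1, at 0.82 against 0.223 to 0.308 CPM (ratio 0.858). This calf also had the highest CCNB2 value of sirloin muscle. CEP55 was high in round muscle in control replicate 4, at 0.393 against 0.0963 to 0.121 CPM (ratio 0.915), and in treated replicate 2, at 0.185 against 0.143 to 0.146 CPM (ratio 0.931). CCNB2 was low in treated replicate 1 of round muscle, at 0.143 against 0.226 to 0.231 CPM (ratio 0.944). The CCNB2 and CEP55 values rest on 9 to 18 counts each.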

How the results depend on the processing

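No tested member and no list gene passed an adjusted p of 0.05 under any setting run. Adjusted p-values of the 8 genes ranged over all settings from 0.788 to 1 for diet in round, 0.822 to 1 for diet in sirloin muscle and 0.0943 to 1 between the muscles. CCNB1 had no value under filterByExpr for diet, since it did not pass that filter. Directions turned for AURKB in round muscle, to -0.01 with filterByExpr, -0.06 with the replicate block and -0.35 to 0.21 with a calf left out. In sirloin muscle they turned for CCNB1 with the replicate block (-0.05). With a calf left out, the sirloin diet values were -0.45 to 0.01 (CDK1), -0.67 to 0.17 (CCNA2), -1.73 to 1.03 (CCNB1) and -0.37 to 0.89 (MKI67), PLK1 between the muscles was -0.06 to 0.1, and the diet differences between the muscles were -0.41 to 2.92 (CCNB1), -0.31 to 0.49 (MKI67, 0.21 with the calf as a replicate block) and -0.38 to 0.17 (TOP2A). The causes were not tested.

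Correlations between the muscles turned for CCNB2 with diet means subtracted (r = -0.0829), and for CDK1 on log2 TPM (-0.102), without the 2 farthest calves (-0.159) and with diet means subtracted (-0.114). With a calf left out they were -0.585 to 0.151 (CCNB1), -0.136 to 0.568 (CCNB2), -0.0938 to 0.201 (CDK1) and -0.145 to 0.82 (CEP55), and CEP55 against MKI67 in sirloin muscle was -0.101 to 0.434. None of these passed an adjusted p of 0.05. Counts over all genes differed by tool. DESeq2 called 45 (round diet), 13 (sirloin diet) and 84 genes (muscle) against 4, 2 and 14. The replicate block gave 2, 0 and 109, and 1 for the diet difference, and leaving out a calf gave 0 to 3, 0 to 1 and 13 to 19.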
